A study of Mus musculus with 6 samples.

Results

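The collagen genes were taken as every gene whose symbol consists of Col, a type number, the letter a and a chain number. Of the 23557 genes in the table of estimated counts, 44 matched. They were split by the structures that their products build into 11 fibrillar collagens, 8 basement membrane collagens and 25 other collagens. Col21a1 has no column in the table and was not analysed here.

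Collagen chains wind around each other into helical trimers, which are secreted and assembled outside the cell. Fibrillar collagens form the fibrils that give connective tissue its tensile strength, type IV collagen forms the sheet-like network of basement membranes under epithelia and around vessels, and the remaining types coat fibrils, link them to other structures or span the cell membrane. In solid tumors, fibroblasts of the host are a main source of fibrillar collagen, and endothelial cells, pericytes and tumor cells can make type IV collagen.

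The study compared CT26 tumors of mice treated with H89, an inhibitor of protein kinase A and related kinases, with tumors of mice given NaCl alone. Female BALB/c mice, 7 weeks old, received 500000 cells of CT26, a colon carcinoma line of the same strain, under the skin. From day 6 they were injected intraperitoneally 2 times a week with H89 at 10 mg/kg in NaCl or with NaCl, and tumors were taken on day 14. Total RNA of 3 H89-treated and 3 NaCl tumors, labelled as separate tumors, was sequenced. The model is a single cell line, and each sample is a whole tumor that holds cells of the host, so fewer cells of a type and less RNA per cell cannot be told apart in any value given here. Total estimated counts ran from 27067349 in NaCl tumor 2 to 31958793 in H89-treated tumor 2, and CPM, the unit used here, is a gene's estimated count per 1000000 of its tumor's total, so that 1 count equalled between 0.0313 and 0.0369 CPM.

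Of the markers of intestinal epithelium, which the label colon carcinoma would name, Epcam (mean 0.236 CPM over the 6 tumors), Cdx2 (0.182 CPM), Vil1 (0.137 CPM) and Cdx1 (0.0106 CPM) had low means. Epcam stood at 1.16 CPM in H89-treated tumor 1 and at no more than 0.0970 CPM in each of the other 5 tumors. The other 5 of the 9 markers passed the filter, Krt20 at a mean of 84.5 CPM, Krt18 at 12.3 CPM, Lgals4 at 6.65 CPM, Cdh1 at 1.72 CPM and Krt8 at 0.860 CPM. H89-treated tumor 1 stood apart in markers of tissue next to a tumor under the skin. Its 9 skeletal muscle markers summed to 27.2 CPM against 3.98 to 6.46 CPM in the other 5 tumors, with Acta1 at 12.1 CPM, and its adipocyte markers Car3 and Cfd stood at 7.99 and 7.32 CPM against at most 0.751 and 0.443 CPM elsewhere. Fabp4, the most abundant adipocyte marker, did not stand apart in H89-treated tumor 1, at 22.8 CPM within the NaCl range of 10.6 to 34.2 CPM. Some collagen values that this tumor moved are given also without it, and the part of muscle or fat in them was not tested. Over all genes with enough counts, H89-treated tumor 3 lay furthest from its group: the chi-square per degree of freedom between its estimated counts and those of H89-treated tumors 1 and 2 was 95.9 and 75.7, against 32.7 between these and 25.0 to 39.4 among NaCl tumors. For list medians, the lowest and highest value with 1 of the 6 tumors left out are given in brackets with the tumor.

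Log2 fold changes compare H89-treated with NaCl tumors, so that positive values mean higher counts under H89, and come from edgeR's quasi-likelihood test with p-values adjusted by the Benjamini-Hochberg method over all 13118 genes with a mean of at least 0.5 CPM. Of the 44 collagens, 27 passed that filter, and none of them passed it through the mean of a single group. By edgeR's adjusted p under 0.05, 1 collagen, Col4a5, was higher in H89-treated tumors, against 113 of all genes tested (0.861%). None was lower by the same test, where 95 of all genes were (0.724%), and DESeq2 called 0 lower as well. At an unadjusted p under 0.05, edgeR gave 9 collagens higher, beside 13.1% of all genes tested, and 1 lower, beside 11.9%. DESeq2, run without the filter, called 6 collagens, all higher: Col4a5, Col3a1, Col6a3, Col20a1, Col7a1 and Col26a1. It called 1392 of 18837 genes in all, where edgeR called 208 of 13118.

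In CPM, the groups did not overlap for 11 collagens that were higher in H89-treated tumors, beside 20.5% of all genes tested, and for 0 that were lower, beside 10.0%. CPM by total count ran higher in H89-treated tumors for the middle of the genes tested. The median log2 ratio of group means was 0.08 over 13116 of them. After scaling by TMM, which brought that median to 0.00, the count was 9 higher (15.2% of all genes) and 0 lower (15.5%), and the groups of Col5a1 and Col9a3 overlapped. The exact permutation test, two-sided, reached p = 0.1, the smallest that 3 tumors against 3 allow, for the 11 collagens without overlap in CPM. It reaches that value just where the groups do not overlap. It therefore restates that count, and the shares of all genes given beside the count apply to it.

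The fold change was above 0 for 19 of the 27 collagens and below 0 for 8. The median log2 fold change was 0.32 for the collagens and 0.00 for all genes tested, and for the collagens it ran from 0.26 (without NaCl tumor 2) to 0.41 (without H89-treated tumor 3). The fold change went with abundance. Among the 9 collagens with a mean of 0.5 to 5 CPM the median was 0.73, while all 2654 genes in that range had a median of 0.28 and 71.8% of them were above 0. Among the 18 collagens with a mean of at least 5 CPM, 11 were above 0 and the median was 0.09, beside -0.03 over all 10464 such genes, of which 45.2% were above 0. The collagens also had longer and more GC-rich transcripts, with medians of 5930 bases and 56.4% GC against 3370 bases and 49.7% over all genes tested. With a loess correction for GC content and length, the median log2 fold change was 0.28 for fibrillar, -0.16 for basement membrane and 0.51 for other collagens, beside -0.05 over all 13020 genes in that fit, of which 597 were called. The part of abundance in the shared direction was not tested.

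**Figure D1:**
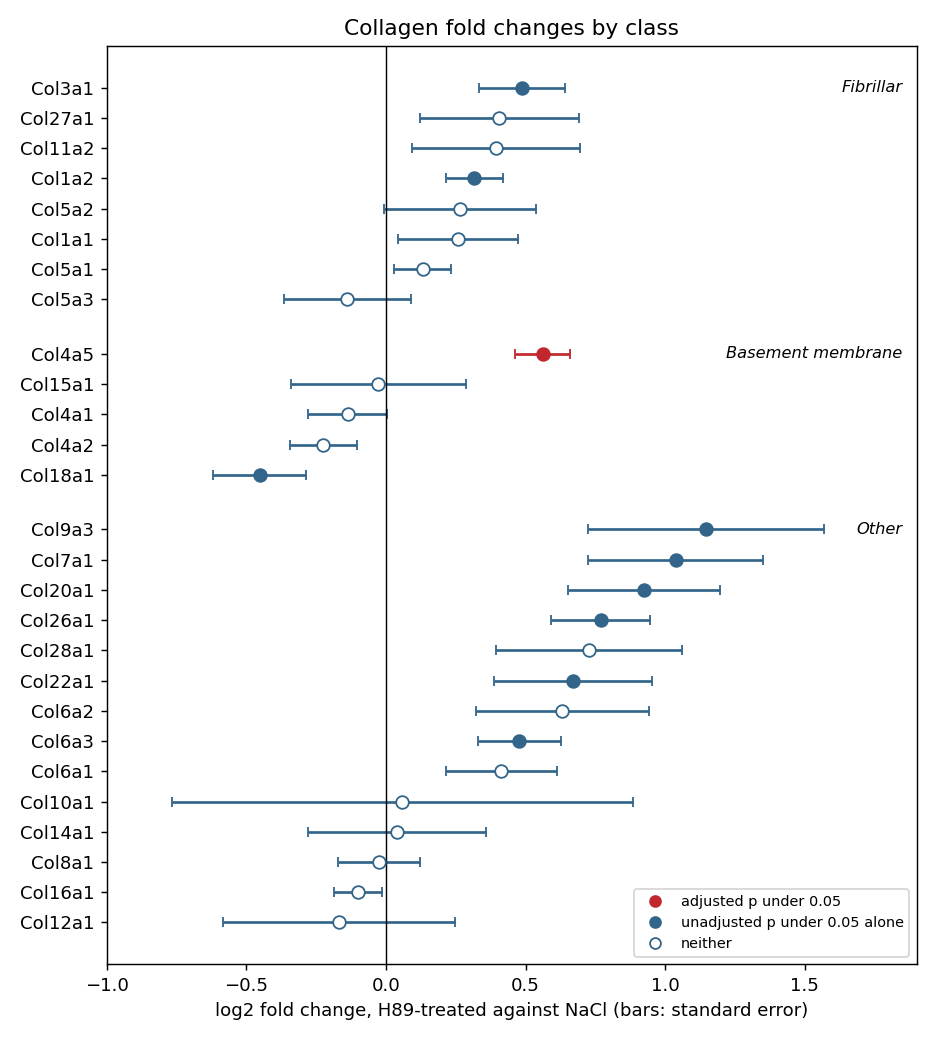
Log2 fold change of H89-treated against NaCl tumors (x axis) for the 27 collagens that passed the filter, by class, with bars of 1 standard error. Of these, 19 points lie above 0, and Col4a5, at 0.56, is the collagen past the adjusted threshold.

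Promoter sequence was at hand from RefSeq (GRCm38.p6) for 35 of the 44 collagens, 20 of them among the 27 tested. Shown are Col4a5, the collagen past edgeR's adjusted threshold, Col4a6, which starts 1308 bases from it in the opposite direction, and Col3a1 and Col6a3, a fibrillar and a type VI chain that DESeq2 also called. The windows are chrX:141475169-141475384 on the + strand for Col4a5, which stops after 216 bases where an annotated exon begins, chrX:141474077-141474326 on the - strand for Col4a6, chr1:45311288-45311537 on the + strand for Col3a1 and chr1:90843972-90844221 on the - strand for Col6a3. Each reads 5′ to 3′, with capitals marking a match on either strand to CCAAT, to GGGCGG, to TATAAA or to TGACGTCA, the letters of the cyclic AMP response element.
Col4a5: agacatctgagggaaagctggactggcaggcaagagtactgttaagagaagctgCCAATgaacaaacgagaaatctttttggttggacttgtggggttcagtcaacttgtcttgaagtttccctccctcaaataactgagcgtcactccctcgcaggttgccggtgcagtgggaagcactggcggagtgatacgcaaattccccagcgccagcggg
Col4a6: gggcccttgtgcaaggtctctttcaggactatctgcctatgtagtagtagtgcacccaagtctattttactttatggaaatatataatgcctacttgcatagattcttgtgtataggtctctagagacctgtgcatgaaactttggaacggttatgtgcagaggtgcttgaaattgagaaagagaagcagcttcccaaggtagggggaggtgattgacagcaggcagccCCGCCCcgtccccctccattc
Col3a1: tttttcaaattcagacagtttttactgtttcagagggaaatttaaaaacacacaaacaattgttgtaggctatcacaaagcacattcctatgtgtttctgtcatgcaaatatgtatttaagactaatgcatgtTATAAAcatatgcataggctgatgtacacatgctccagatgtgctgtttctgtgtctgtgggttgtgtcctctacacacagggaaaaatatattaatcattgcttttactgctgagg
Col6a3: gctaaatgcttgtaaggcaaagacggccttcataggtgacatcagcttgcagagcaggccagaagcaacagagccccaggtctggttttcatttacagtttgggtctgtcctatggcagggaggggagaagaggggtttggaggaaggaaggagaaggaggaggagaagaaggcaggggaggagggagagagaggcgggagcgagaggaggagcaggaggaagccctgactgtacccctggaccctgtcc
Of all 32851 promoters of 250 bases, 33.9% held CCAAT, 32.7% GGGCGG, 12.4% TATAAA and 1.55% TGACGTCA. The 20 tested collagens with a promoter have 22 promoters, of which, in windows of 250 bases with any exon in them, 8 held CCAAT, 13 GGGCGG, 3 TATAAA and 0 TGACGTCA. The GGGCGG counted for Col4a5 reaches into bases that are not printed. A match is given as letters in the window, not as a site of binding.

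Type I collagen, the main fibril of skin, bone and scar, is built of the chains of Col1a1 and Col1a2. Col1a2 stood at 1423, 1412 and 1383 CPM in NaCl tumors 1 to 3 and at 1959.95, 1845 and 1698 CPM in H89-treated tumors 1 to 3. All 3 H89-treated tumors were above all 3 NaCl tumors, also after scaling by TMM. Its log2 fold change was 0.32 (SE 0.10) with an edgeR adjusted p of 0.120, and 0.23 without H89-treated tumor 1. Col1a1 stood at 607, 572 and 434 CPM in NaCl tumors and at 775, 753 and 487 CPM in H89-treated tumors. H89-treated tumors 1 and 2 were above every NaCl tumor and tumor 3 was within their range, so the groups overlapped. Its log2 fold change was 0.26 (SE 0.21), edgeR adjusted p 0.485, and 0.11 without H89-treated tumor 1. Leaving out tumor 3 of the NaCl group gave 0.12 and tumor 3 of the H89 group 0.46, and quantile normalization gave 0.44 for Col1a1 and 0.55 for Col1a2.

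Type III collagen, a homotrimer that shares fibrils with type I in vessels and granulation tissue, is encoded by Col3a1. Its level was 258, 321 and 299 CPM in NaCl tumors and 420.1, 516 and 350.5 CPM in H89-treated tumors. The groups did not overlap on either scale, and H89-treated tumor 3 lay closest to the NaCl tumors. Its log2 fold change was 0.49 (SE 0.15), edgeR adjusted p 0.115, and 0.47 without H89-treated tumor 1 or 0.63 without tumor 3 of that group. Part of its sequence is shared: 2.01% of its words of 31 bases also occur in Gm47302, a gene annotated over its exons on the same strand. The share was 2.21% for Col5a1 and 2.11% for Col22a1, and the highest among the tested collagens was that of Col9a3.

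Type V and XI chains join the core of type I and II fibrils and limit their width. Col5a1 had a mean of 195 CPM and Col5a2 of 15.3 CPM, with log2 fold changes of 0.13 and 0.27 and edgeR adjusted p-values of 0.452 and 0.575. Single tumors moved both: Col5a1 was 0.08 without NaCl tumor 2 or H89-treated tumor 2 and 0.21 without NaCl tumor 1, and Col5a2 was 0.07 with NaCl tumor 2 left out, 0.03 with H89-treated tumor 2 left out, 0.49 with NaCl tumor 3 left out and 0.46 with H89-treated tumor 3 left out. Col5a3 stood at 27.8, 24.4 and 26.2 CPM in NaCl tumors and at 23.7, 33.7 and 17.2 CPM in H89-treated tumors. The H89-treated tumors lay on both sides of the NaCl range, and the log2 fold change was -0.14 (SE 0.23), edgeR adjusted p 0.737. Without H89-treated tumor 3 it was 0.09. Col11a2 (mean 2.20 CPM) and Col27a1 (mean 1.93 CPM) had log2 fold changes of 0.39 and 0.41, and their groups overlapped. Col11a2 ran from 0.21 without NaCl tumor 3 and 0.26 without NaCl tumor 2 to 0.77 without NaCl tumor 1, Col27a1 was 0.18 without NaCl tumor 2, and quantile normalization gave 0.14 and 0.12. Of the 8 fibrillar collagens tested, 7 were above 0 and 1 below, with a median of 0.29 (0.22 without NaCl tumor 2 to 0.38 without H89-treated tumor 3), and 2, both above 0, had an unadjusted p under 0.05 in edgeR, where 13.1% of all genes were higher and 11.9% lower. Col2a1, the fibril of cartilage, Col11a1 and Col24a1 were below the filter.

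Type IV collagen is the network of basement membranes, and the chains of Col4a1 and Col4a2 form its most widespread trimer. Col4a1 stood at 375, 421 and 526 CPM in NaCl tumors and at 364, 480 and 421 CPM in H89-treated tumors. Its groups overlapped, with a log2 fold change of -0.14 (SE 0.14) and an edgeR adjusted p of 0.578, and the sign turned under quantile normalization (0.04) and without NaCl tumor 3 (0.01). Col4a2 stood at 263, 272 and 332 CPM in NaCl tumors and at 225, 290 and 264 CPM in H89-treated tumors. Here H89-treated tumor 1 was below every NaCl tumor and the other 2 were within their range. For Col4a2 the log2 fold change was -0.22 (SE 0.12), edgeR adjusted p 0.281, and -0.16 without H89-treated tumor 1. It was -0.12 without NaCl tumor 3 and -0.11 under quantile normalization. The genes lie head to head on chromosome 8, with 22 bases of overlap between them.

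Col4a5 encodes a chain of the type IV trimers of kidney, lung and smooth muscle basement membranes. It stood at 36.0, 38.5 and 45.2 CPM in NaCl tumors (mean 39.9 ± 4.75, SD, n = 3) and at 57.1, 61.6 and 66.7 CPM in H89-treated tumors (mean 61.8 ± 4.81, SD, n = 3). The lowest H89-treated tumor was above the highest NaCl tumor, also after scaling by TMM. The log2 fold change was 0.56 (SE 0.10) with an edgeR adjusted p of 0.0443. The call rested on all 6 tumors: leaving out NaCl tumor 1, 2 or 3 gave an adjusted p by edgeR of 0.103, 0.135 or 0.142, and leaving out H89-treated tumor 1, 2 or 3 gave 0.0667, 0.110 or 0.0894. The log2 fold change stayed between 0.50 and 0.65 in those 6 fits, in which at most 12 of all genes were called. Quantile normalization with limma also ended the call, at an adjusted p of 0.0525 and a log2 fold change of 0.58, as did edgeR with the replicate number as a block, at 0.0640 and 0.57. Over the 10 alternatives that kept all 6 tumors, its adjusted p ran from 0.000509 in DESeq2 to 0.0640. None of the words of 31 bases in its transcript occurred in another gene.

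The gene lies on the X chromosome at 141475385 to 141689234 on the + strand, and Col4a6, its head-to-head neighbour whose chain pairs with it in smooth muscle, was below the filter at 0.0323 to 0.125 CPM. The other pair of type IV genes that starts head to head, Col4a3 and Col4a4 on chromosome 1, 71 bases apart, was also below the filter, at 0.143 to 0.313 CPM and 0.0323 to 0.156 CPM. The chains of Col4a3 and Col4a4 are the partners of the Col4a5 chain in the kidney glomerulus. Relative to Col4a1 in CPM per kilobase, a ratio chosen after its values were seen, Col4a5 stood at 0.0970, 0.0926 and 0.0869 in NaCl tumors and at 0.159, 0.130 and 0.161 in H89-treated tumors.

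Col15a1 and Col18a1 encode collagens of the basement membrane zone that carry sugar chains, and the end of the Col18a1 chain is released as endostatin. Col18a1 stood at 111, 131 and 170.1 CPM in NaCl tumors and at 97.5, 124 and 94.4 CPM in H89-treated tumors. H89-treated tumors 1 and 3 were below every NaCl tumor and tumor 2 was within their range. For Col18a1 the log2 fold change was -0.45 (SE 0.17), edgeR adjusted p 0.154, and -0.43 without H89-treated tumor 1. Without NaCl tumor 3, the highest, it was -0.27. It was the 1 collagen below 0 with an unadjusted p under 0.05 in edgeR (0.0276). That p was 0.0514 with the replicate number as a block, 0.0506 with the correction for GC content and length, 0.0957 without NaCl tumor 3, and 0.0711 and 0.0865 without tumors 1 and 3 of the H89 group, and limma after quantile normalization gave 0.0648. Col15a1, at a mean of 38.8 CPM, ran from 23.3 to 60.2 CPM within the H89-treated tumors, and its log2 fold change of -0.03 took either sign when single tumors were left out. Of the 5 basement membrane collagens tested, 1 was above 0 and 4 below, with a median log2 fold change of -0.14 (-0.31 without H89-treated tumor 2 to 0.01 without NaCl tumor 3). The median was 0.11 in DESeq2 and 0.12 without the filter, where the scarce chains Col4a3, Col4a4 and Col4a6 enter.

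**Figure D2:**
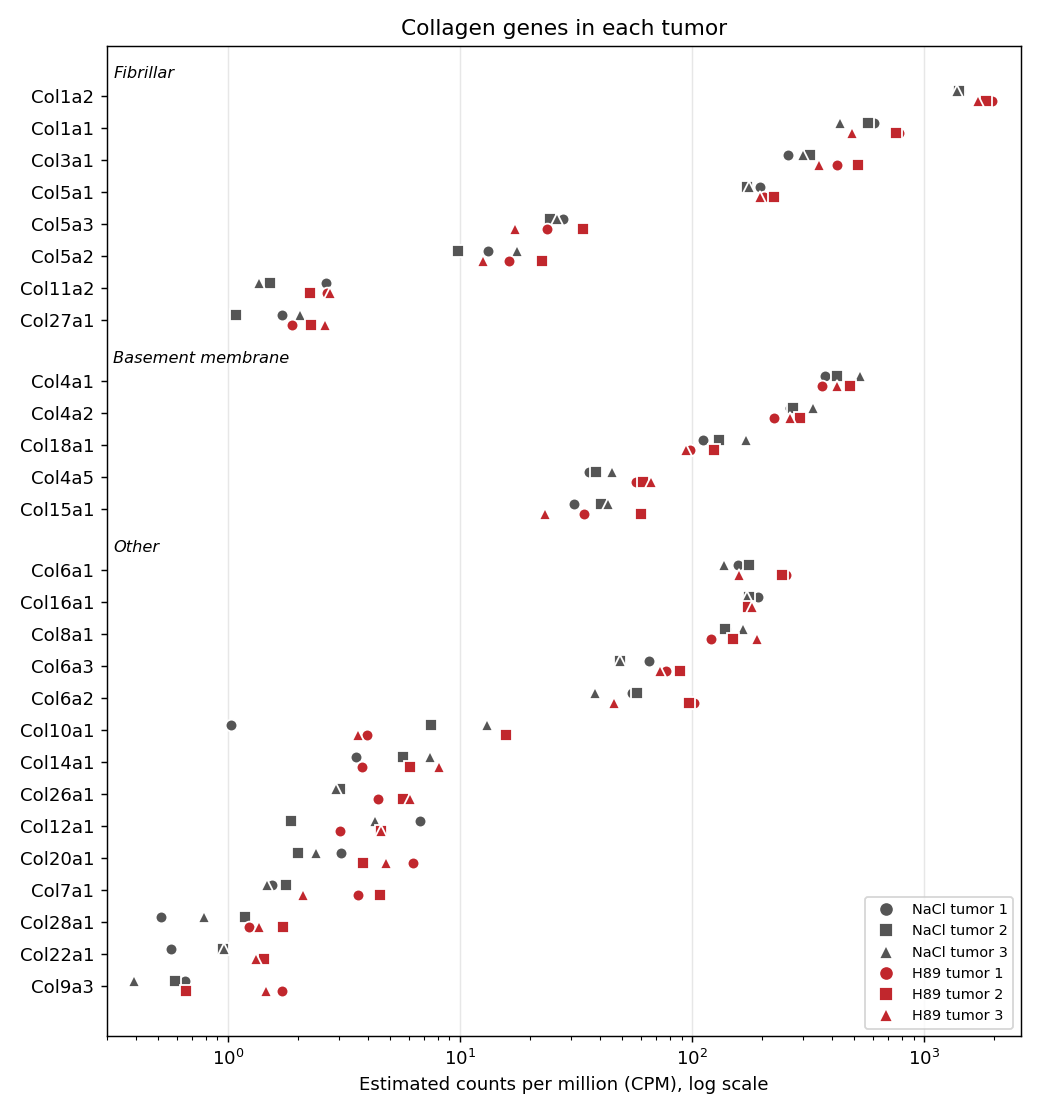
Level of the 27 collagens that passed the filter in each tumor, in CPM on a log axis, grouped by class. Gray symbols are NaCl tumors and red symbols H89-treated tumors, with a circle, square or triangle for tumor 1, 2 or 3. The 3 red symbols of Col4a5 lie between 57.1 and 66.7 CPM, above the gray ones at 36.0 to 45.2 CPM.

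Type VI collagen forms beaded filaments around cells, built of the chains of Col6a1, Col6a2 and Col6a3. Col6a1 stood at 158, 177 and 137 CPM in NaCl tumors and at 253, 243 and 158 CPM in H89-treated tumors. Col6a2 stood at 55.3, 57.9 and 38.1 CPM in NaCl tumors and at 102, 96.7 and 45.9 CPM in H89-treated tumors. For both chains, H89-treated tumors 1 and 2 were above every NaCl tumor, tumor 3 was within the NaCl range, and NaCl tumor 3 was the lowest of all. The log2 fold changes were 0.41 (SE 0.20) for Col6a1 and 0.63 (SE 0.31) for Col6a2, with edgeR adjusted p-values of 0.240 and 0.248. Without H89-treated tumor 1 they were 0.26 and 0.41, and without H89-treated tumor 3 they were 0.62 and 0.93.

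Col6a3 differed from the other chains in that all H89-treated tumors were above all NaCl tumors. It stood at 65.4, 48.9 and 48.7 CPM in NaCl tumors and at 77.1, 88.6 and 72.7 CPM in H89-treated tumors. For Col6a3 the log2 fold change was 0.48 (SE 0.15), edgeR adjusted p 0.110, and 0.47 without H89-treated tumor 1. Col6a4, Col6a5 and Col6a6, which lie beside each other on chromosome 9, were below the filter. Summed over the 6 type VI genes, the level was 279, 284 and 224 CPM in NaCl tumors and 432, 429 and 278 CPM in H89-treated tumors, with H89-treated tumor 3 within the NaCl range.

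Fibril-associated collagens sit on the surface of fibrils and have interrupted helices. Col16a1, the highest of them in CPM per kilobase, stood at 192, 175 and 172 CPM in NaCl tumors and at 173, 175 and 181 CPM in H89-treated tumors. All H89-treated tumors were within the NaCl range. The log2 fold change was -0.10 (SE 0.09), edgeR adjusted p 0.501, and it was -0.03 without NaCl tumor 1 and -0.02 under quantile normalization. Col20a1 stood at 3.06, 2.00 and 2.40 CPM in NaCl tumors and at 6.27, 3.82 and 4.78 CPM in H89-treated tumors. Its groups did not overlap, and the log2 fold change was 0.92 (SE 0.27) with an edgeR adjusted p of 0.101, or 0.68 without H89-treated tumor 1. Col9a3 (mean 0.910 CPM) and Col22a1 (mean 1.10 CPM) had log2 fold changes of 1.14 and 0.67 with edgeR adjusted p-values of 0.153 and 0.191. Quantile normalization gave these scarce collagens smaller values, 0.45 and 0.23, and 0.60 for Col20a1. Of the words of 31 bases in Col9a3, 6.76% also occur in Tcfl5, which overlaps it on the opposite strand, and whether the library kept strand is not stated. Col12a1 (mean 4.17 CPM, log2 fold change -0.17) and Col14a1 (mean 5.76 CPM, log2 fold change 0.04) took either sign when single tumors were left out.

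Col7a1 encodes the anchoring fibril that fastens skin epithelium to the dermis. It stood at 1.55, 1.77 and 1.47 CPM in NaCl tumors and at 3.64, 4.54 and 2.10 CPM in H89-treated tumors. The groups did not overlap, H89-treated tumor 3 was nearest to the NaCl tumors, and the log2 fold change was 1.04 (SE 0.31), edgeR adjusted p 0.106. Col26a1, of which little is known, stood at 3.06, 3.03 and 2.91 CPM in NaCl tumors and at 4.42, 5.67 and 6.07 CPM in H89-treated tumors. Its NaCl tumors differed little, the groups did not overlap, and the log2 fold change was 0.77 (SE 0.18), edgeR adjusted p 0.0691. Without H89-treated tumor 1 it was 0.87. Col28a1 had a mean of 1.13 CPM and a log2 fold change of 0.73, edgeR adjusted p 0.220, with groups that did not overlap. Under quantile normalization Col7a1, Col26a1 and Col28a1 had 0.59, 0.49 and 0.29.

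Short-chain collagens form lattices, those of type VIII around vessels and those of type X in growth plate cartilage. Col8a1 stood at 139.6, 138 and 166 CPM in NaCl tumors and at 120.1, 150.4 and 190.2 CPM in H89-treated tumors. The H89-treated tumors reached beyond the NaCl range on both sides. The log2 fold change was -0.03 (SE 0.15), edgeR adjusted p 0.935, and 0.10 without H89-treated tumor 1. Col10a1, singled out after its values were seen, varied most within groups among the tested collagens, at 1.03, 7.46 and 13.1 CPM in NaCl tumors and 3.96, 15.8 and 3.62 CPM in H89-treated tumors. Its coefficient of variation over the NaCl tumors was 83.9%, against 1.46% for Col1a2. Among the 14 other collagens tested, 11 were above 0 and 3 below, with a median of 0.55 (0.44 without H89-treated tumor 1 to 0.66 without H89-treated tumor 3). Of the 14, 7 had a mean of at least 5 CPM, and their median log2 fold change in a fit of such genes alone was 0.09.

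The 17 collagens below the filter were 3 fibrillar, 3 basement membrane and 11 other collagens. None exceeded 0.720 CPM in any tumor, and Col9a2 was at 0 in all 6. The 4 transmembrane collagens, Col13a1, Col17a1, Col23a1 and Col25a1, were all among them and together summed to 0.702 to 1.17 CPM per tumor. Each of the 17 had between 0 and 23 estimated counts in a tumor, and the groups of Col8a2 (0.0344 to 0.148 CPM in NaCl and 0.188 to 0.356 CPM in H89-treated tumors), named after its values were seen, did not overlap.

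Corrected for transcript length, in CPM per kilobase over all 6 tumors, Col1a2 was at the top with a mean level of 303, followed by Col1a1 (102), Col4a1 (65.2), Col3a1 (64.8), Col6a1 (45.7), Col4a2 (42.5), Col16a1 (34.2) and Col8a1 (29.5). The mean levels of Col4a1 and Col3a1 were 66.7 and 52.6 CPM per kilobase over NaCl tumors and 63.7 and 77.1 CPM per kilobase over H89-treated tumors, so their order differed between groups. Col4a5 stood at 7.78 CPM per kilobase and came at place 12 of the 44.

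The ratio of chains that share a trimer, in CPM per kilobase, does not depend on a tumor's total count. Col1a1 to Col1a2 was 0.384, 0.366 and 0.283 in NaCl tumors and 0.357, 0.368 and 0.259 in H89-treated tumors, lowest in tumor 3 of either group. Col4a1 to Col4a2 was 1.39, 1.51 and 1.55 in NaCl tumors and 1.57, 1.61 and 1.55 in H89-treated tumors, a span of 1.39 to 1.61 over all tumors. Col6a1 to Col6a2 was 3.41, 3.65 and 4.30 in NaCl tumors and 2.99, 3.01 and 4.14 in H89-treated tumors, and Col5a1 to Col5a2 was 11.7, 13.8 and 7.89 against 9.90, 7.89 and 12.4. The groups overlapped in these ratios except for Col4a1 to Col4a2, where the H89-treated tumors started at 1.55205 and the NaCl tumors ended at 1.54778.

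Summed over classes, fibrillar collagens stood at 2530.2, 2514 and 2340.4 CPM in NaCl tumors and at 3404, 3399.99 and 2768 CPM in H89-treated tumors. The NaCl mean was 2462 ± 105 CPM and the H89-treated mean 3191 ± 366 CPM (SD, n = 3), a ratio of 1.30. In CPM scaled by TMM, H89-treated tumor 3 at 2604 CPM came below NaCl tumor 1 at 2645 CPM, so the groups overlapped on that scale. Col1a2 alone made up 57.3% of the class, and without it the sums, 1107, 1102 and 957 CPM in NaCl tumors and 1444, 1555 and 1070.02 CPM in H89-treated tumors, overlapped in CPM by total count too. Basement membrane collagens summed to 817, 904 and 1117 CPM in NaCl tumors and to 778, 1016 and 870 CPM in H89-treated tumors, a ratio of 0.939 with overlapping groups. Other collagens summed to 633, 623 and 597 CPM in NaCl tumors and to 756, 800 and 683 CPM in H89-treated tumors, a ratio of 1.21, and overlapped after scaling by TMM. All collagens together took 0.398% to 0.405% of the total count in NaCl tumors and 0.432% to 0.522% in H89-treated tumors. Scaled by TMM they overlapped, with H89-treated tumor 3, at 4065 CPM, below every NaCl tumor (4079 to 4161 CPM), and without Col1a2 they overlapped on both scales. Whether the classes differ in their response was not tested.

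**Figure D3:**
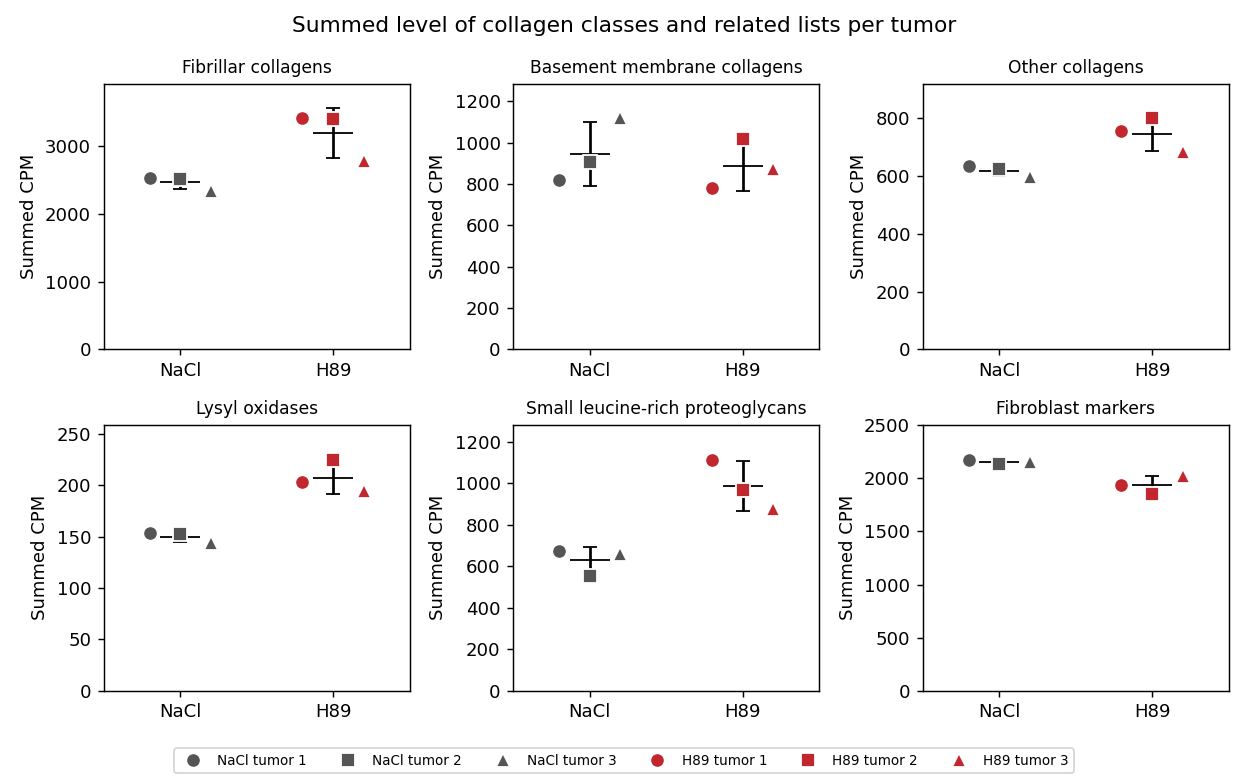
Summed level per tumor, in CPM, of the 3 collagen classes, the lysyl oxidases, the small leucine-rich proteoglycans and the fibroblast markers. Symbols are single tumors, the horizontal line is the group mean and the bar is 1 SD. The lysyl oxidases and small leucine-rich proteoglycans are parts of longer lists, and the other parts of those lists, whose sums overlapped, are not drawn. Fibrillar collagens reached 2530.2 CPM in the highest NaCl and 2768 CPM in the lowest H89-treated tumor, with overlap after scaling by TMM, while basement membrane collagens overlapped on either scale.

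Collagen genes near each other had fold changes of the same or of opposite sign. On chromosome 10, Col6a1 and Col6a2, 85161 bases apart, had log2 fold changes of 0.41 and 0.63, and Col18a1, 326009 bases from Col6a1, had -0.45. On chromosome 1, Col3a1 and Col5a2 lie 24614 bases apart in opposite directions and had 0.49 and 0.27. On chromosome 2, Col9a3 and Col20a1 lie 364345 bases apart and had 1.14 and 0.92. Neighbours were listed by distance, with no test of shared control.

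Collagen chains are modified and folded in the endoplasmic reticulum before export. In the lists that follow, the most abundant gene is the one with the highest mean CPM, not corrected for length. The counts of every pathway and cell type list stand beside these shares of all genes tested. By edgeR's adjusted p under 0.05, 0.861% were higher and 0.724% lower. At an unadjusted p under 0.05, edgeR gave 13.1% higher and 11.9% lower. Of 20 genes for synthesis and folding, 19 were tested, and edgeR called 0 in either direction, with 2 higher and 1 lower at an unadjusted p under 0.05. Their median log2 fold change was 0.06 (0.04 without NaCl tumor 1 to 0.08 without NaCl tumor 2), beside 0.00 over all genes tested. P4ha3, a prolyl 4-hydroxylase subunit that stabilizes the helix, stood at 0.528, 0.595 and 0.471 CPM in NaCl tumors and at 1.45, 2.00 and 1.10 CPM in H89-treated tumors (log2 fold change 1.46, edgeR adjusted p 0.0630). At the other end, Ppib, a proline isomerase, had -0.29 (edgeR adjusted p 0.135), and the most abundant gene, P4hb, averaged 732 CPM.

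Propeptides are removed and fibrils crosslinked outside the cell. In this list 10 of 13 genes were tested, and edgeR called 0, with 3 higher and 0 lower at an unadjusted p under 0.05 and a median of 0.10 (0.09 without H89-treated tumor 3 to 0.35 without H89-treated tumor 1). Loxl3, a lysyl oxidase, had a log2 fold change of 0.48 (edgeR adjusted p 0.0513), Adamts2, an N-proteinase, had -0.21, and Pcolce, the enhancer of the C-proteinase, was the most abundant at a mean of 803 CPM. The 5 lysyl oxidases summed to 153, 152 and 144 CPM in NaCl tumors and to 203, 225 and 195 CPM in H89-treated tumors, with no overlap on either scale. In the other parts of this list, the C-proteinases with their enhancers and the N-proteinases, the sums overlapped on both scales.

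Among collagen-binding matrix proteins, 16 of 18 were tested, and edgeR called 1 higher and 0 lower, beside 0.861% and 0.724% of all genes tested. At an unadjusted p under 0.05 in edgeR, 7 were higher and 0 lower, beside 13.1% and 11.9% of all genes. Their median was 0.38 (0.24 without H89-treated tumor 1 to 0.51 without NaCl tumor 1). Omd, a small leucine-rich proteoglycan, rose from 8.36, 10.7 and 10.7 CPM in NaCl tumors to 38.7, 24.4 and 23.8 CPM in H89-treated tumors (log2 fold change 1.49, edgeR adjusted p 0.0407). Without H89-treated tumor 1, the highest of them, its log2 fold change was 1.18, and without each of the other 5 tumors it was 1.39 to 1.63. The call of Omd, too, ended without any 1 of the 6 tumors, at adjusted p-values by edgeR of 0.0667 (without H89-treated tumor 1) to 0.142 (without NaCl tumor 3). Sparc, a collagen chaperone of the matrix, had -0.19, and Fn1 was the most abundant at a mean of 2539 CPM. The 9 small leucine-rich proteoglycans, which bind fibrils and space them, summed to 672, 553 and 659 CPM in NaCl tumors and to 1114, 965 and 875 CPM in H89-treated tumors, with no overlap on either scale. The 9 glycoproteins of the list summed to 4805, 3283 and 4143 CPM in NaCl and 3469, 4163 and 4613 CPM in H89-treated tumors. Their groups overlapped on both scales.

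Of 10 collagen receptors, 7 were tested, and edgeR called 0, with 1 higher (Lair1, log2 fold change 1.08) and 1 lower (Ddr1, -0.28) at an unadjusted p under 0.05. Their median was 0.14 (-0.05 without H89-treated tumor 3 to 0.16 without H89-treated tumor 2), and Itgb1 was the most abundant at 589 CPM. Of 10 collagen-degrading proteases, 8 were tested, and edgeR called 0, with 0 higher and 3 lower at an unadjusted p under 0.05 and a median of -0.26 (-0.35 without NaCl tumor 2 to 0.07 without NaCl tumor 1). They summed to 2653, 2570.02 and 2862 CPM in NaCl tumors and to 2191, 2416 and 2549 CPM in H89-treated tumors, lower with no overlap on either scale. The 3 cathepsins summed to 2455, 2438 and 2698 CPM in NaCl tumors and to 2065, 2231 and 2341 CPM in H89-treated tumors. They, too, were lower with no overlap on either scale. The 7 metalloproteases summed to 199, 132 and 164 CPM in NaCl tumors and to 126, 185 and 208 CPM in H89-treated tumors. Their groups overlapped on both scales. Without Ctsb the sums of the whole list overlapped in CPM by total count but not after scaling by TMM. The sums of the other 4 pathway lists overlapped on both scales. Without its most abundant gene, Pcolce, which made up 71.7% of it, the sum for propeptide removal and crosslinking was higher with no overlap on either scale (263 to 278 CPM in NaCl and 337 to 393 CPM in H89-treated tumors). That of the binding proteins without Fn1 was higher with no overlap in CPM by total count and overlapped after scaling by TMM, and those of the lists for synthesis without P4hb and for receptors without Itgb1 overlapped on both scales. Mmp8 had the smallest p among those below 0 (log2 fold change -1.29), Mmp2 among those above 0 (0.32), and Ctsb was the most abundant at 1327 CPM.

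**Figure D4:**
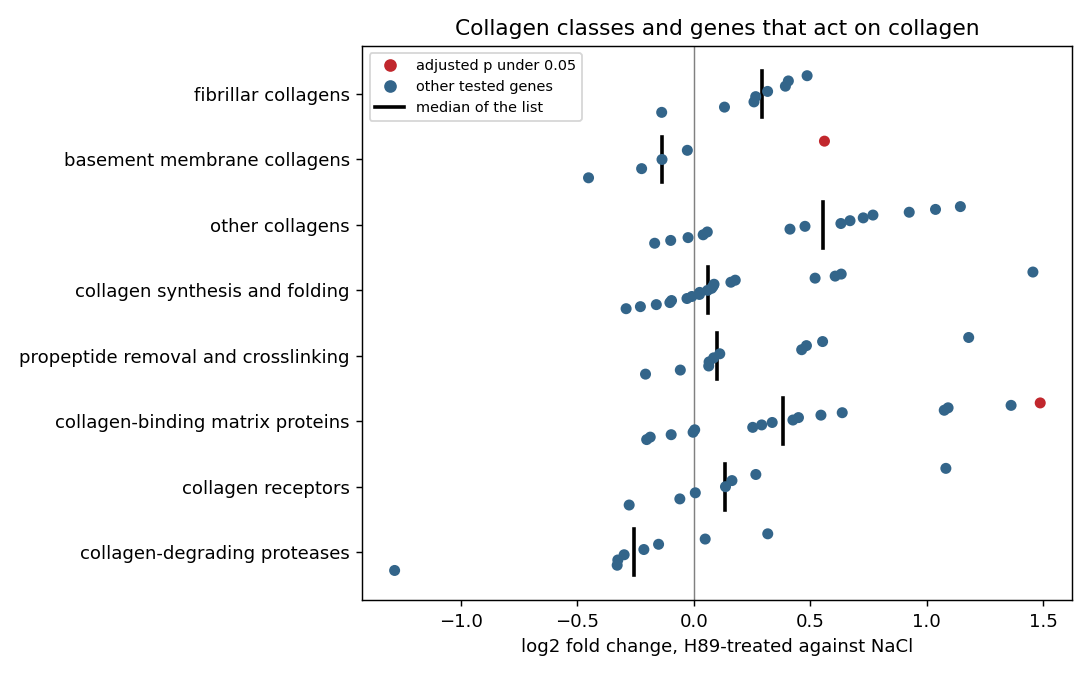
Log2 fold change of H89-treated against NaCl tumors (x axis) of each tested gene (points) of the collagen classes and the pathway lists, with the median of each as a black line. Red points, Col4a5 and Omd, are past the adjusted threshold. The medians were 0.29 for fibrillar, -0.14 for basement membrane and 0.55 for other collagens.

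Markers of the cells that make collagen were read beside these values, from lists that hold no collagen. All 11 fibroblast markers were tested, and edgeR called 0, with 1 higher and 4 lower at an unadjusted p under 0.05, beside 13.1% and 11.9% of all genes tested. Their median was 0.14 (0.03 without NaCl tumor 1 to 0.18 without H89-treated tumor 2). Their sum was 2177, 2131 and 2151 CPM in NaCl tumors and 1941, 1855 and 2023 CPM in H89-treated tumors, lower without overlap while the fibrillar collagens were higher. Of that sum, 57.8% was S100a4, the most abundant and the lower gene with the smallest p (log2 fold change -0.43), and Dcn, also on the list of binding proteins together with Lum, had 0.34. Without S100a4 the sum was 893, 754 and 815 CPM in NaCl tumors and 854, 837 and 1029 CPM in H89-treated tumors, with overlap. None of these markers was at 0, and the part of fibroblast number in the collagen levels was not tested.

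Of 11 pericyte and smooth muscle markers, 10 were tested, and edgeR called 0, with 1 higher (Pdgfrb, the most abundant, log2 fold change 0.24) and 1 lower (Kcnj8, -1.95) at an unadjusted p under 0.05. Their median was -0.12 (-0.28 without H89-treated tumor 1 to -0.03 without H89-treated tumor 3), and they summed to 143, 143 and 182 CPM in NaCl tumors, against 153, 184 and 153 CPM under H89. All 10 endothelial markers were tested, and edgeR called 0, with 0 higher and 2 lower at an unadjusted p under 0.05 and a median of -0.31 (-0.54 without H89-treated tumor 2 to -0.14 without NaCl tumor 3). They summed to 108, 153 and 185 CPM in NaCl tumors and to 94.4, 148 and 122 CPM in H89-treated tumors, Cdh5 being the most abundant, Cldn5 (-0.87) the lower and Vwf (0.43) the higher gene with the smallest p. Like Col4a1, Col4a2, Col15a1 and Col18a1, the endothelial sum was highest in NaCl tumor 3 among NaCl tumors and in H89-treated tumor 2 among H89-treated tumors. Col10a1, which is not a basement membrane collagen, was highest in the same tumors. The pericyte and smooth muscle sum was highest in the same tumors, at 182 and 184 CPM. Col4a5 was highest in tumor 3 of either group. The part of vessels in the type IV, XV and XVIII levels was not tested.

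Keratinocytes make type VII and XVII collagen. Of 11 markers, 2 were tested, Krt15, Krt1 and Ivl were at 0 in all tumors, and the sum of 44.1, 53.9 and 72.2 CPM in NaCl tumors, against 18.2, 15.5 and 17.1 CPM under H89, was 89.6% Cdsn. Without Cdsn the sum went the other way, at 2.92, 3.29 and 3.87 CPM in NaCl tumors and 4.13, 4.82 and 3.91 CPM in H89-treated tumors, with no overlap in CPM by total count and with overlap after scaling by TMM. Among the markers below the filter, Trp63, named after its values were seen, stood at 0.172 to 0.323 CPM in NaCl and 0.525 to 1.06 CPM in H89-treated tumors. Krt14, also below the filter, went the other way with no overlap, at 0.108 to 0.172 CPM in NaCl and 0.0323 to 0.105 CPM in H89-treated tumors. By edgeR, 1 of the 2 tested markers was lower and 0 higher: Cdsn fell by 2.15 on the log2 scale (edgeR adjusted p 0.0288), while Krt10 had 0.31. The call of Cdsn ended without NaCl tumor 2 or 3 or H89-treated tumor 1 or 2, at edgeR adjusted p-values of 0.119, 0.0837, 0.0667 and 0.0980. Its log2 fold change in those fits was -2.19, -1.93, -2.26 and -2.03, and 0 of all genes were called in each. The median of the pair was -0.92 (-0.99 without H89-treated tumor 1). Without a NaCl tumor, when 3 markers passed the filter, the median was 0.12 (without NaCl tumor 2) to 0.52 (without NaCl tumor 3). Of 7 chondrocyte and bone markers, Sox9 alone was tested, at a mean of 39.8 CPM and a log2 fold change of -0.73 (-0.98 without H89-treated tumor 3 to -0.50 without H89-treated tumor 1), with 0 edgeR calls and an unadjusted p under 0.05, and the others, Acan and Matn1 of cartilage included, stood at no more than 0.344 CPM in any tumor.

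Of 9 skeletal muscle markers, 4 were tested, with 0 edgeR calls and 1 higher (Acta1) and 0 lower at an unadjusted p under 0.05. Acta1 and Tnnt3 passed the filter only through the H89 group, with means of 4.23 and 0.816 CPM against 0.257 and 0.188 CPM in NaCl tumors. Nothing is read from that count or from the median. The sum of the 9 markers was 6.43, 5.77 and 6.46 CPM in NaCl tumors and 27.2, 5.63 and 3.98 CPM in H89-treated tumors. Des, also on the pericyte list, was the most abundant. The median, led by Acta1 (3.97), was 1.24 (-0.37 over the markers that still passed the filter without H89-treated tumor 1, to 1.49 without NaCl tumor 1). Of 7 adipocyte markers, 3 were tested, with 0 edgeR calls, 2 higher (Cfd and Car3) and 0 lower at an unadjusted p under 0.05. Cfd and Car3 passed the filter only through the H89 group, with means of 2.61 and 2.93 CPM against 0.172 and 0.190 CPM in NaCl tumors. Nothing is read from that count or from the median. The sum of the 7 markers was 10.9, 28.9 and 34.6 CPM in NaCl tumors and 40.7, 20.7 and 13.9 CPM in H89-treated tumors. The most abundant gene was Fabp4 (log2 fold change -0.43). The median was 3.89, that of Car3 (-0.64 without H89-treated tumor 1, when Fabp4 alone passed the filter, to 4.45 without H89-treated tumor 3). None of the muscle or adipocyte markers was at 0 in all tumors.

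Macrophage markers (7 of 7 tested) had 0 edgeR calls and 0 in either direction at an unadjusted p under 0.05, with a median of 0.10 (-0.08 without NaCl tumor 1 to 0.26 without NaCl tumor 2), Itgam at 0.96, Cd68 at -0.11 and Lyz2 as the most abundant at 1093 CPM. They summed to 1546, 2491 and 2144 CPM in NaCl tumors and to 1842, 2029.5 and 2545 CPM in H89-treated tumors, with overlap. T cell markers (6 of 6 in the table, which has no column for Trac, not analysed here) had 0 edgeR calls, 3 higher and 0 lower at an unadjusted p under 0.05 and a median of 1.23 (0.94 without H89-treated tumor 3 to 1.69 without NaCl tumor 1). Their sum was 28.4, 17.9 and 13.5 CPM in NaCl tumors and 43.6, 26.5 and 69.8 CPM in H89-treated tumors, with overlap. Without Lck the sum was 17.2, 10.5 and 8.82 CPM in NaCl tumors and 29.8, 18.3 and 49.6 CPM in H89-treated tumors. It was higher with no overlap in CPM by total count and overlapped after scaling by TMM. Cd3g had the smallest p (log2 fold change 1.64) and Lck was the most abundant at 10.9 CPM. Intestinal epithelial markers (5 of 9 tested) had 0 edgeR calls, 0 higher and 2 lower at an unadjusted p under 0.05 and a median of 0.05 (-0.23 without H89-treated tumor 2 to 0.35 without NaCl tumor 1), with Krt20, the most abundant, at -0.47 and Lgals4 at 0.25. They summed to 121, 114 and 127 CPM in NaCl tumors and to 84.6, 102 and 90.4 CPM in H89-treated tumors, lower with no overlap on either scale. Of that sum, 79.3% was Krt20, and without it the groups overlapped in CPM by total count but not after scaling by TMM.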

How the data were processed

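Total RNA of 3 NaCl and 3 H89-treated CT26 tumors was sequenced on the BGISEQ-500 platform. The authors deposited a table called TPM that holds estimated counts per gene and tumor. Their totals differ between tumors, so they are not scaled to a fixed total, and of the values above 0 between 58.6% and 61.4% per tumor lie within 0.01 of a whole number. The submitters' processing notes name kallisto, DESeq2 and GRCm38, without versions or an annotation. Of the gene columns, 206 were named one by one and 23351 were read in the same way.

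Estimated counts were rounded and tested with edgeR 4.0.16 in R 4.3.3 (mean of at least 0.5 CPM, TMM, quasi-likelihood, treatment as the only term, Benjamini-Hochberg over all genes). Standard errors are the size of the log2 fold change over the square root of F. The exact permutation test, two-sided, used log2(CPM + 0.5). Positions, lengths and overlaps are those of GENCODE M21 by symbol. The fit was tested on simulated data. Precision is limited by 3 tumors per group.

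Members and lists were chosen with earlier results of these data known. Collagens are given in every tumor if their adjusted p is under 0.05, if they are among the 3 with the highest mean CPM of a class or the 5 with the smallest p in a direction, or if they are tested chains of type IV or VI. Of each pathway and cell type list reported, the gene with the smallest p in each direction and the most abundant are named.

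Alternatives were quantile normalization with limma 3.58.1, median ratio normalization, DESeq2 1.42.0 without the filter, limma on log2(CPM + 0.1, 0.5 or 1), a filter at 5 CPM or none, the replicate number as a block, a loess correction for GC content and length, type IV alone as the basement membrane class, and each tumor left out. Scaling of CPM by TMM was chosen after seeing the data.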

Additional observations from a re-analysis of the deposited data

How the results depend on the processing

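Over 16 alternative fits per gene at most, 391 fold changes kept their direction and side of the threshold, 5 came past it (in DESeq2), 8 no longer passed it (all Col4a5) and 19, of 7 genes, turned sign. The count of collagens called, 1, was 0 under quantile normalization with limma, 6 in DESeq2, and 0 with any tumor left out. With the replicate number as a block it was 0, as for all genes, and tumors of the same number share only that number: after the group means were taken out, r between same-number tumors was 0.16, 0.06 and -0.02, and 1 of the 3 NaCl tumors correlated best with its own number. At an unadjusted p under 0.05 the count of 10 was 12 with the replicate number as a block, 11 in limma on log2(CPM + 1), 9 without a filter and with the GC and length correction, 8 under quantile normalization, 5 among genes of at least 5 CPM, where fewer genes are tested, and 7 to 10 with a tumor left out. The groups of 11 collagens did not overlap, and of 9 in CPM scaled by TMM, chosen after seeing the data. The median of fibrillar collagens was 0.22 to 0.38 with a tumor left out. That of basement membrane collagens was 0.11 in DESeq2 and 0.12 without a filter, where scarce genes enter, and -0.31 to 0.01 with a tumor left out. That of other collagens was 0.37 under quantile normalization, 0.40 in DESeq2, 0.38 in limma on log2(CPM + 1), 0.40 without a filter, 0.088 at 5 CPM or more, and 0.44 to 0.66 with a tumor left out. Signs turned for Col5a3 (-0.41 to 0.085 with a tumor left out, above 0 without H89 tumor 3), Col4a1 (0.038 under quantile normalization; -0.24 to 0.0051, above 0 without NaCl tumor 3), Col15a1 (0.0011 at 5 CPM or more; -0.47 to 0.25, with 0.0033, 0.066, 0.038 and 0.25 without NaCl tumor 2, NaCl tumor 3, H89 tumor 1 and H89 tumor 3), Col12a1 (-0.53 to 0.32, above 0 without NaCl tumor 1), Col14a1 (-0.11 under quantile normalization, -0.046 with the GC and length correction; -0.21 to 0.30, below 0 without NaCl tumor 1 or H89 tumor 3), Col8a1 (0.033 under quantile normalization, 0.0080 at 5 CPM or more; -0.18 to 0.10, above 0 without NaCl tumor 3 or H89 tumor 1) and Col10a1 (-0.98 to 0.82, below 0 without NaCl tumor 1 or H89 tumor 2). Where no reason is given, the cause was not tested.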
